A study of Homo sapiens with 6 samples.

Results

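The interleukin 1 (IL1) family genes and inflammatory caspases described here are the ligands IL1A, IL1B, IL18 and IL33, the antagonist IL1RN, the receptor chains IL1R1 and IL1RAP, the caspases CASP1 and CASP4 and the pore-forming gasdermin GSDMD. Their mRNA was measured in SNU-449 cells, which derive from a human hepatocellular carcinoma, with Affymetrix expression arrays. All probe sets annotated to exactly 1 of the 10 symbols were taken, which gave 23 of 54675 probe sets, or 10 of 19775 genes, and 7 of the 10 genes had several. One group of 3 arrays held RNA of cells labelled as carrying USP48, a ubiquitin-specific protease, delivered by lentivirus and followed by puromycin selection to a stable strain. The other 3 held RNA of SNU-449 cells labelled as carrying the vector, with the genotype given as control, and the protocol text names only the USP48 virus. Both groups were labelled transfected, and the labels do not say whether a strain is 1 clone or a pool, or whether replicates were separate cultures, so p-values here reflect the scatter among these 6 samples, part of which may be technical. Values are log2 summaries, 1 per probe set and array, and in such bulk RNA fewer cells of a type and less RNA per cell cannot be told apart.

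IL1A and IL1B signal through the receptor IL1R1, which needs the accessory chain IL1RAP, and IL1RN occupies the same receptor without signalling. IL1A and IL33 are alarmins that can act as full-length proteins, whereas IL1B and IL18 are made as inactive precursors that CASP1 cleaves inside inflammasomes. CASP4 senses bacterial lipopolysaccharide in the cytosol, and CASP1 and CASP4 both cleave GSDMD, whose fragment opens pores in the plasma membrane. In the liver, IL1 is known as an inducer of acute-phase and chemokine genes in hepatocytes.

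USP48 itself was not called higher by any of its 5 probe sets, so the groups are named by their labels. Probe set 220079_s_at, the one with the largest difference, was at 7.19, 6.94 and 7.05 on the log2 scale in the USP48-labelled arrays, against 7.88, 7.83 and 7.94 in the empty vector arrays, and 2 of the 5 were called lower. The brightest, 225925_s_at, differed by −0.13 and was not called (limma adjusted p = 0.367). Probe set 229812_at lay the other way, at 0.24, and was not called (limma adjusted p = 0.121). The positions of these probe sets on the transferred construct were not analysed here. The hybridization controls, spiked-in RNAs that report on the array and not on the cells, averaged 10.09 ± 0.10 in the USP48-labelled arrays and 9.79 ± 0.04 in the empty vector arrays (SD, n = 3 each; exact permutation p = 0.1, the smallest possible). All 18 of them were higher in every USP48-labelled array. GAPDH, whose 5′ minus 3′ probe set value falls with RNA degradation, was at −0.51, −0.45 and −1.31 in the USP48-labelled arrays, against −0.32, −0.37 and −0.44 in the empty vector arrays, and USP48-labelled replicate 3 stood lowest. For ACTB the same measure averaged −3.82 ± 0.35 in the USP48-labelled arrays and −3.46 ± 0.22 in the empty vector arrays (SD, exact permutation p = 0.2). The ACTB groups overlapped, and USP48-labelled replicate 3 was again lowest, at −4.14. Of 9 markers of carcinoma and mesenchymal lines, 2 had both means below every array median: CDH1, the epithelial cadherin, at 2.57 and 2.95, and GPC3 at 3.59 and 3.39 (USP48-labelled and empty vector means). VIM was at 11.15 and 11.57 and KRT18 at 11.80 and 11.79, in the same order. The hepatocyte marker ALB was dim, at 2.14 and 2.07, and AFP, the fetal liver protein, was at 3.96 and 3.75. Of the 11 hepatocyte markers measured, 6 had both group means below the median of every array.

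The promoters of the ligands and the caspase with the largest differences are shown first, with that of the antagonist, which was not called. RefSeq promoter windows of build GRCh38.p14, running from 250 bases before to 50 bases after a transcript start, matched 7 of the 10 genes, with 14 windows. CASP1, IL18 and GSDMD have no window here. The 250 bases before the most upstream listed start are printed 5′ to 3′ on the strand of the gene, and capitals mark TGANTCA, the letters bound by AP-1 factors. The stretches are chr2:112784494-112784743 on the minus strand for IL1A, chr2:112836780-112837029 on the minus strand for IL1B, chr11:104968575-104968824 on the minus strand for CASP4 and chr2:113117721-113117970 on the plus strand for IL1RN.
IL1A: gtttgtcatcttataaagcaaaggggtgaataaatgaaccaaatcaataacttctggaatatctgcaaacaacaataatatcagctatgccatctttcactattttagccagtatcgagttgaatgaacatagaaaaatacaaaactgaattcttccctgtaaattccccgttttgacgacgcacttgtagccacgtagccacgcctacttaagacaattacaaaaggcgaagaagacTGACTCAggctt
IL1B: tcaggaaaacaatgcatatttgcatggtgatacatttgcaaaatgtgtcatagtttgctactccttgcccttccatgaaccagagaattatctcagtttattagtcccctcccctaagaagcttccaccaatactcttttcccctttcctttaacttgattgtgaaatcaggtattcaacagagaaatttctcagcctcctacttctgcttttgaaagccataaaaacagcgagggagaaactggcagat
CASP4: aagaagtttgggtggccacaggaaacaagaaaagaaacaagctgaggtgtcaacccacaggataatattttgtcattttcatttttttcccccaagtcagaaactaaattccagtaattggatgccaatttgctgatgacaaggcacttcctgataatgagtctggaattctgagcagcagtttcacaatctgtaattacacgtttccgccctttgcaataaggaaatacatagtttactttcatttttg
IL1RN: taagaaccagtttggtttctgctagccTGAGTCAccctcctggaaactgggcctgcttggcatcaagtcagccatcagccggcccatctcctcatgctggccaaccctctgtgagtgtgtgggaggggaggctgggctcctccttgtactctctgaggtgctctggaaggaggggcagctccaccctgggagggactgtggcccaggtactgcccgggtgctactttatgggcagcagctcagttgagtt
TGANTCA was searched on both strands, where it reads the same except for its middle letter, and occurred in 7.71% of the 35116 RefSeq windows. The IL1A window shown held 2 matches, whose first bases lie at −12 and at 39 from the start, and the match at 39 is outside the printed stretch. At least 2 matches were held by 0.515% of all windows. The other IL1A window overlaps it and holds the same letters at −105 and −55. In the IL1RN window shown 1 match began at −223. The NF-κB consensus was in none of the 14 windows, against 5.91% of all windows. GAAANNGAAA, the core of interferon-response elements, was in 2 overlapping windows of IL1RN, at −122 and −231, and in 3.57% of all windows. These matches describe letters in a window and say nothing of binding.

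Of the 23 probe sets, 9 were called higher and 0 lower in the USP48-labelled arrays, against 10.6% of all 54613 non-control probe sets called higher, 13.8% called lower and 24.3% called in either direction (limma, adjusted p under 0.05 over all probe sets). At an unadjusted p under 0.05 the members counted 12 higher and 1 lower. The share of all probe sets at that limit was not counted. This count and the unadjusted counts of the lists below therefore have no background beside them. The groups did not overlap in 10 of the 23, which were 9 higher and 1 lower, where 18.8% of all probe sets were higher and 38.2% were either without overlap. When each gene was represented by its brightest probe set, 7 of 10 members were higher, where 14.0% of all 19775 genes were higher, 13.2% lower and 27.1% either, and the median log2 difference was 0.57 for the members and 0.05 for all genes. The brightest was taken over all 6 arrays, and for IL1A that choice rests on the USP48-labelled arrays, since 208200_at is the brighter in the empty vector arrays. When each gene was represented by its probe set brightest in the empty vector arrays, a choice made after seeing the data, 6 of 10 members were higher, without IL1A, against 13.5% of all genes. With the brightest over all arrays, IL1A, IL1B, IL18, IL1R1, IL1RAP, CASP1 and CASP4 were the members called, and IL33, IL1RN and GSDMD were not. The calls depend on the scale: scaling each array on its hybridization controls lowers every difference by 0.294, and 4 of the 23 probe sets were then higher and 1 was lower. The higher ones were those of IL1A, IL1B and CASP4, and the median of all probe sets was then −0.26, against 0.03 as deposited. Of all probe sets 1826 were then called higher and 21292 lower, against 5768 higher and 7519 lower as deposited. The members were chosen with earlier results of these data known.

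**Figure D1:**
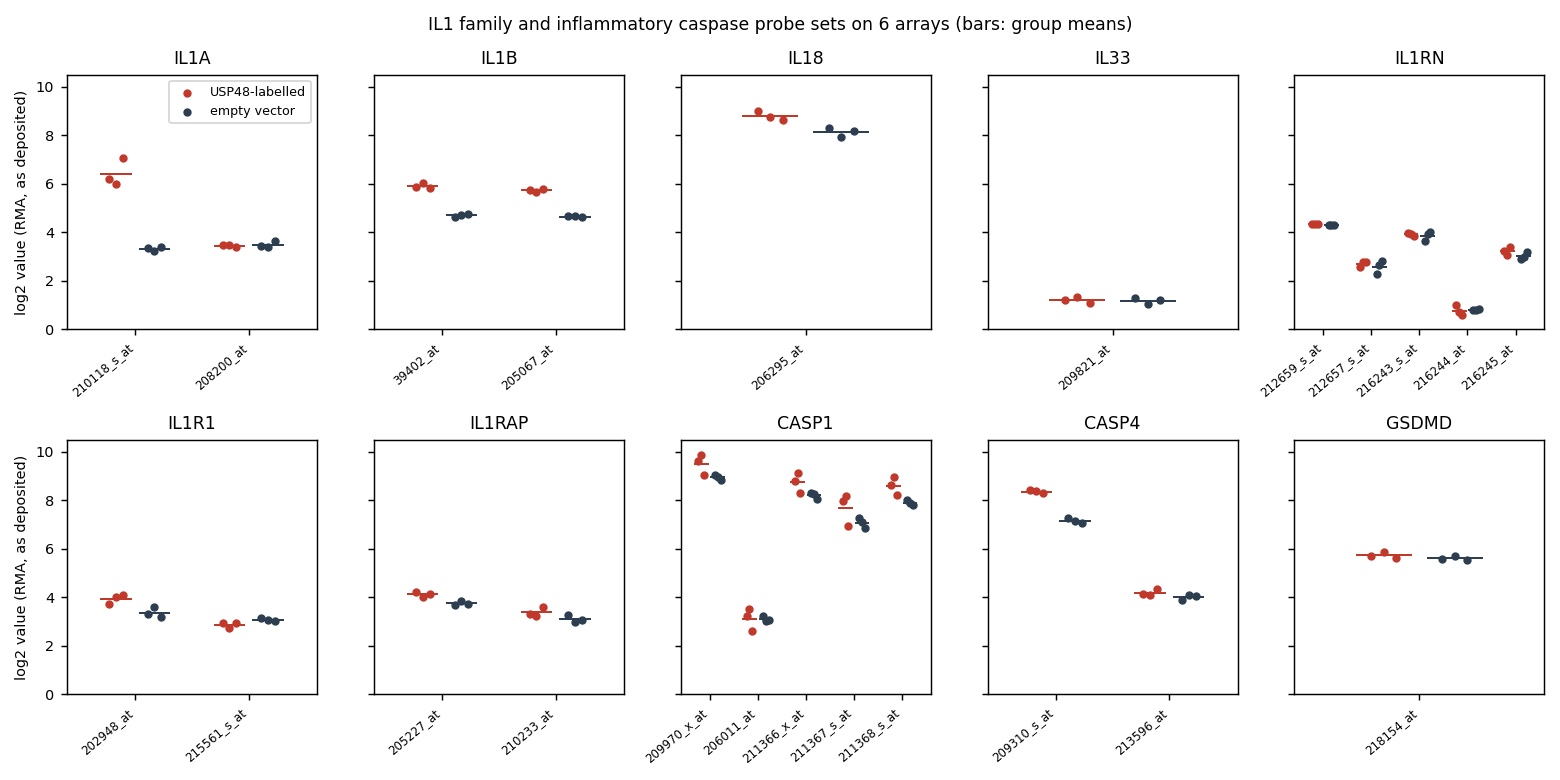
Deposited log2 values of every member probe set on the 6 arrays, with USP48-labelled arrays in red to the left of empty vector arrays in dark blue; points are arrays and bars group means (n = 3 each). IL1A 210118_s_at, both IL1B probe sets and CASP4 209310_s_at are separated by the widest gaps, while the points of IL33 and GSDMD overlap.

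IL1A showed the largest difference of all members, in 1 of its 2 probe sets. IL1A 210118_s_at was at 6.21, 5.99 and 7.06 in the USP48-labelled arrays, against 3.34, 3.22 and 3.40 in the empty vector arrays. Every USP48-labelled array stood far above the empty vector arrays, and replicate 3 was the highest. They differed by 3.10 on the log2 scale with a standard error of 0.22 (limma adjusted p = 5.59e-06), ranking 37 among 54613 probe sets from the highest. No fold is given, because the empty vector mean of 3.32 was under all 6 array medians and detection was not analysed. The second probe set, 208200_at, was at 3.49, 3.46 and 3.39 in the USP48-labelled arrays and 3.42, 3.39 and 3.66 in the empty vector arrays. Its groups overlapped, with a difference of −0.04 (95% interval −0.27 to 0.18). The mean of both probe sets differed by 1.53 (limma adjusted p = 1.95e-05 over genes). Which transcripts or regions each probe set reads was not analysed here.

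IL1B rose in both of its probe sets by nearly the same amount. IL1B 39402_at was at 5.86, 6.01 and 5.84 in the USP48-labelled arrays, against 4.63, 4.73 and 4.75 in the empty vector arrays. IL1B 205067_at was at 5.73, 5.68 and 5.80 in the USP48-labelled arrays, against 4.66, 4.67 and 4.61 in the empty vector arrays. The arrays of each group lay close together and the groups did not overlap in either probe set. The log2 differences were 1.20 (SE 0.09, limma adjusted p = 9.82e-06), a 2.29-fold higher level, and 1.09 (SE 0.09, limma adjusted p = 1.21e-05), a 2.12-fold higher level. Leaving out any 1 array kept the difference of 39402_at at 1.15 or more.

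IL18, the other ligand cleaved by CASP1, also rose. Its probe set 206295_at was at 8.98, 8.74 and 8.64 in the USP48-labelled arrays and 8.31, 7.91 and 8.19 in the empty vector arrays. The groups did not overlap, and the nearest arrays were USP48-labelled replicate 3 and empty vector replicate 1. The difference on the log2 scale was 0.65 (SE 0.13, limma adjusted p = 0.00333), 1.57-fold. It was 0.36 and did not pass on the hybridization control scale (limma adjusted p = 0.0632).

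IL33, the nuclear alarmin of the family, was dim in every array. Its single probe set 209821_at was at 1.21, 1.32 and 1.08 in the USP48-labelled arrays and 1.28, 1.04 and 1.20 in the empty vector arrays. The groups overlapped and the difference was 0.03 (95% interval −0.20 to 0.26, limma adjusted p = 0.884). The group means stood at percentile 6.4 of all probe sets in the USP48-labelled arrays and 6.6 in the empty vector arrays. No difference could be seen at this signal, which does not show that none exists.

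IL1RN, the receptor antagonist, was not called by any of its 5 probe sets. The brightest, 212659_s_at, was at 4.36, 4.35 and 4.34 in the USP48-labelled arrays and 4.29, 4.28 and 4.29 in the empty vector arrays. These groups did not overlap, but the gap was small: the difference was 0.06 (95% interval −0.13 to 0.25, limma adjusted p = 0.663). The other 4 probe sets overlapped between groups, with differences between −0.04 and 0.20. On the hybridization control scale 4 of the 5 changed sign, and none was called.

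Each receptor chain was called higher by 1 of its 2 probe sets. The called ones stood near the middle of all probe sets, IL1R1 202948_at at percentile 53.3 in the USP48-labelled arrays and 42.5 in the empty vector arrays, and IL1RAP 205227_at at percentile 56.5 in the USP48-labelled arrays, with group means of 4.12 there and 3.76 in the empty vector arrays. IL1R1 202948_at was at 3.74, 4.01 and 4.09 in the USP48-labelled arrays, against 3.30, 3.59 and 3.19 in the empty vector arrays. All USP48-labelled arrays were higher, by 0.59 on the log2 scale (SE 0.13, limma adjusted p = 0.00654). The other IL1R1 probe set, 215561_s_at, lay the other way, at 2.93, 2.74 and 2.93 in the USP48-labelled arrays and 3.13, 3.05 and 3.04 in the empty vector arrays. Its groups did not overlap either, and its difference of −0.21 did not pass (limma adjusted p = 0.14). On the hybridization control scale 215561_s_at was called lower at −0.50 (adjusted p = 0.00281) and 202948_at did not pass, at 0.30 (adjusted p = 0.0703). The mean of both was at 0.19 (limma adjusted p = 0.122), so the direction of IL1R1 depends on the probe set.

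IL1RAP, the chain shared by the receptors of IL1 and IL33, was slightly higher. IL1RAP 205227_at was at 4.21, 4.03 and 4.12 in the USP48-labelled arrays, against 3.70, 3.83 and 3.74 in the empty vector arrays. The groups did not overlap, and they differed by 0.36 on the log2 scale (SE 0.09, limma adjusted p = 0.0153). It did not pass without USP48-labelled replicate 1 (0.32, adjusted p = 0.0589) or empty vector replicate 1 (0.33, adjusted p = 0.0609), and it was 0.07 on the hybridization control scale. IL1RAP 210233_at was at 3.32, 3.24 and 3.58 in the USP48-labelled arrays and 3.26, 2.96 and 3.05 in the empty vector arrays, which overlapped, and did not pass (0.29, limma adjusted p = 0.104).

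**Figure D2:**
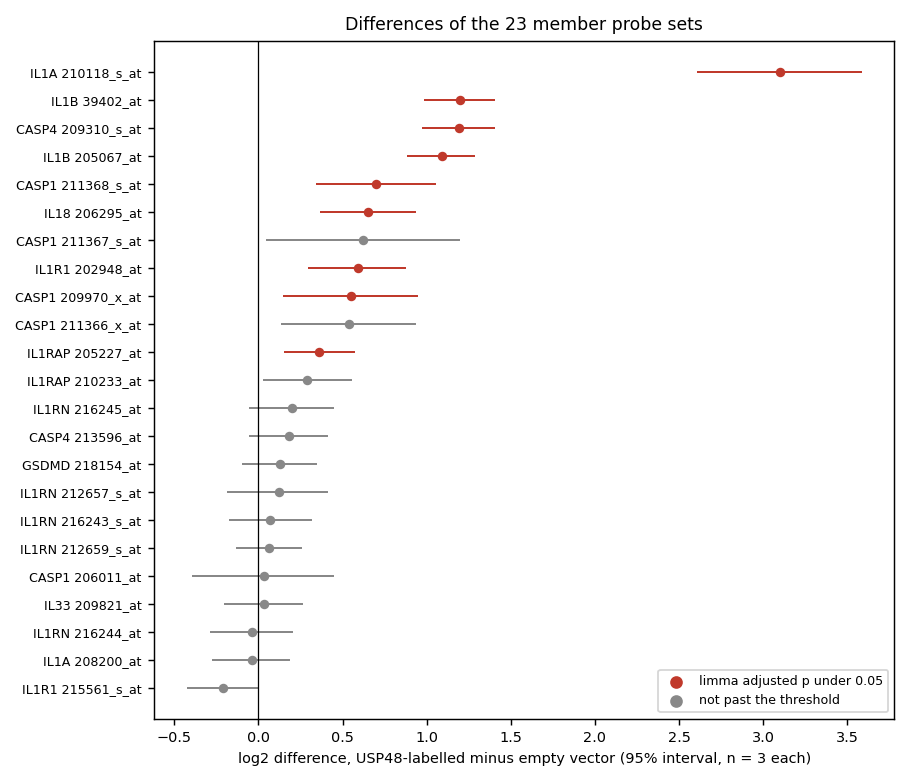
Log2 differences of the 23 member probe sets, USP48-labelled minus empty vector arrays, with 95% intervals from limma (n = 3 arrays each). The 9 probe sets in red passed an adjusted p under 0.05 and all lie right of 0, from 0.36 for IL1RAP 205227_at to 3.10 for IL1A 210118_s_at.

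CASP4, the caspase of the non-canonical inflammasome, was called higher by its brighter probe set. CASP4 209310_s_at was at 8.40, 8.37 and 8.28 in the USP48-labelled arrays, against 7.28, 7.14 and 7.06 in the empty vector arrays. The groups stood apart and differed by 1.19 on the log2 scale (SE 0.09, limma adjusted p = 1.13e-05), 2.28-fold. The dimmer CASP4 213596_at was at 4.13, 4.09 and 4.32 in the USP48-labelled arrays and 3.87, 4.09 and 4.04 in the empty vector arrays. Its groups overlapped and it did not pass (0.18, 95% interval −0.05 to 0.41).

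CASP1, the canonical inflammasome protease, was called higher by 2 of its 5 probe sets. CASP1 211368_s_at was at 8.64, 8.95 and 8.22 in the USP48-labelled arrays, against 7.99, 7.90 and 7.82 in the empty vector arrays. These groups did not overlap and differed by 0.70 on the log2 scale (SE 0.16, limma adjusted p = 0.00777), 1.63-fold. CASP1 209970_x_at, the brightest, was at 9.60, 9.85 and 9.02 in the USP48-labelled arrays and 9.04, 8.97 and 8.82 in the empty vector arrays. Here USP48-labelled replicate 3 lay among the empty vector arrays, and the difference of 0.55 was just past the threshold (SE 0.18, limma adjusted p = 0.0471). That call held without USP48-labelled replicate 3 and was lost when 1 of the remaining 5 arrays was left out, with adjusted p of 0.0862 to 0.163, after quantile normalization (adjusted p = 0.0504) and on the hybridization control scale (0.25, adjusted p = 0.277). Probe sets 211366_x_at and 211367_s_at differed by 0.54 and 0.62 (limma adjusted p = 0.0523 and 0.111), and the dim 206011_at by 0.03.

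All 5 CASP1 probe sets had the same order among the USP48-labelled arrays, with replicate 2 highest and replicate 3 lowest. Without USP48-labelled replicate 3 the differences of 211366_x_at and 211367_s_at were 0.76 and 0.99 and both passed (limma adjusted p = 0.00263 and 0.000609). This brought the members called higher to 11 probe sets. Of all 54613 probe sets 12594 were then called in either direction, and the share called higher was not counted. Replicate 3 was also the array with the lowest 5′ to 3′ difference of GAPDH, at −1.31, and the highest hybridization controls, at 10.21. The part of either in the CASP1 values was not tested. CASP1 resembles its neighbour CARD16 in sequence, and 1 further probe set names both genes, so signal of the 2 genes cannot be fully told apart.

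GSDMD, the substrate of both caspases, was not called. Its probe set 218154_at was at 5.72, 5.87 and 5.62 in the USP48-labelled arrays and 5.59, 5.68 and 5.55 in the empty vector arrays. The groups overlapped, and the difference was 0.13 (95% interval −0.09 to 0.34, limma adjusted p = 0.401). A rise above 0.34 lies outside that interval on the deposited scale.

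Unequal changes of member pairs were compared within arrays, which cancels any scaling of a whole array. The value of IL1A 210118_s_at minus that of the antagonist IL1RN 212659_s_at was 1.85, 1.65 and 2.72 in the USP48-labelled arrays, against −0.96, −1.05 and −0.89 in the empty vector arrays, and the groups did not overlap. For IL1B 39402_at minus IL1RN it averaged 1.55 ± 0.09 in the USP48-labelled arrays and 0.42 ± 0.07 in the empty vector arrays (SD, n = 3 each; exact permutation p = 0.1). CASP4 209310_s_at minus CASP1 209970_x_at averaged −1.14 ± 0.38 in the USP48-labelled arrays and −1.78 ± 0.04 in the empty vector arrays (SD, n = 3 each; exact permutation p = 0.1). IL1RAP 205227_at minus IL1R1 202948_at averaged 0.17 ± 0.25 in the USP48-labelled arrays and 0.40 ± 0.16 in the empty vector arrays, which overlapped (SD, n = 3 each; exact permutation p = 0.3). With 3 against 3 arrays the smallest two-sided exact p is 0.1, and after Benjamini-Hochberg adjustment over the 4 pairs the first 3 were at 0.133, so none passes 0.05. IL1A 210118_s_at thus differed by 3.04 more than IL1RN did, IL1B by 1.14 more than IL1RN, and CASP4 by 0.64 more than CASP1. With the mean of each gene's probe sets these values were 1.45 for IL1A and 0.20 for CASP4, and with 208200_at, the IL1A probe set brighter in the empty vector arrays, the first was −0.10.

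IL1R1, IL1A, IL1B, IL1RN, CASP4 and CASP1 lie in 3 gene clusters, and the other 4 members lie outside them. In RefSeq gene order IL1A and IL1B are adjacent at one end of the ligand cluster on chromosome 2 and IL1RN is at the other, and the 6 protein-coding genes between them, IL37, IL36G, IL36A, IL36B, IL36RN and IL1F10, were not called, with differences from −0.05 to 0.22. In the receptor cluster on chromosome 2, IL1R1 and IL1RL1 were called higher by their brightest probe sets, and IL1R2, IL1RL2, IL18R1 and IL18RAP were not. The other probe sets of IL1R1 and IL1RL1 were not called. In the caspase cluster on chromosome 11, CASP4, CASP1 and CARD16, an inhibitor of CASP1, were called higher, at 1.19, 0.55 and 0.56, while CASP5 and CARD18 were not, at 0.17 and −0.04. Several of these uncalled genes are dim, among them CARD18 with group means of 1.80 and 1.84, USP48-labelled first, so a change below detection would not be seen.

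**Figure D3:**
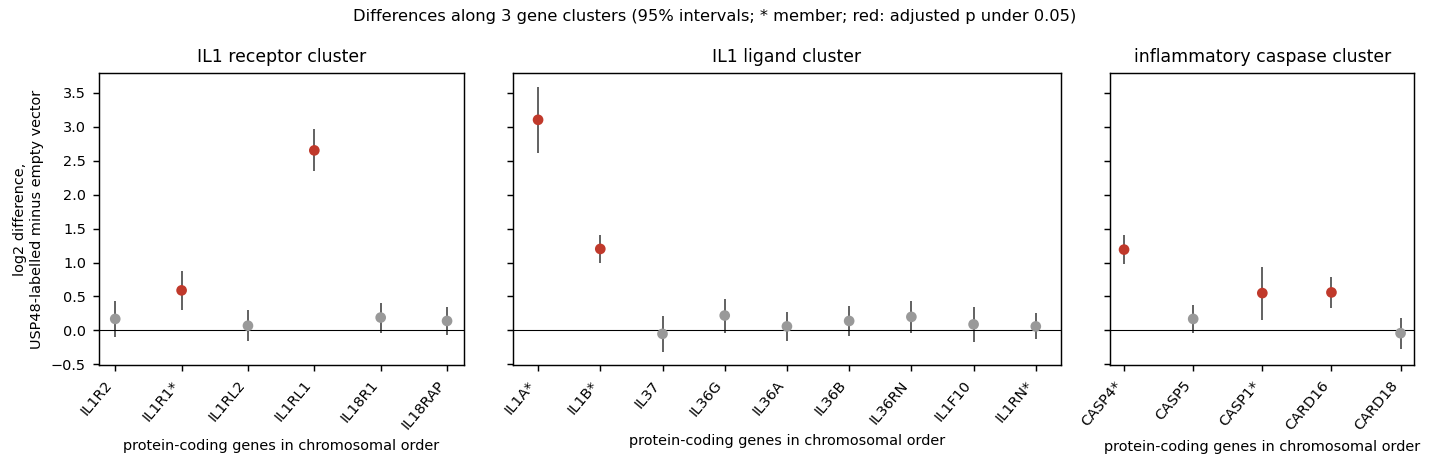
Log2 differences (USP48-labelled minus empty vector arrays, brightest probe set of each gene, 95% intervals) along the receptor, ligand and caspase clusters, with genes in chromosomal order and not to distance. Red points passed an adjusted p under 0.05 and asterisks mark members; IL1A, IL1B, IL1RL1 and CASP4 lie above 1, while the genes between IL1B and IL1RN lie between −0.05 and 0.22.

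Among 15 other IL1 family ligands, decoys and receptors, 1 was called higher and 0 lower (all genes: 14.0% and 13.2%). The median log2 difference was 0.14, and 10 had both means below every array median. The gene called was IL1RL1, the receptor of IL33. IL1RL1 207526_s_at was at 6.45, 6.57 and 6.76 in the USP48-labelled arrays, against 4.23, 3.91 and 3.70 in the empty vector arrays. The groups stood apart by 2.65 on the log2 scale (SE 0.14, limma adjusted p = 9.8e-07), 6.29-fold, while its ligand IL33 was dim in all 6 arrays. The other 3 probe sets of IL1RL1 differed by 0.08 to 0.30 and did not pass, and 2 of them, 242809_at and 210442_at, are brighter than 207526_s_at in the empty vector arrays (4.07 and 3.97 against 3.94), so with probe sets chosen there 0 of the 15 were called by limma.

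Of 15 measured genes of IL1 receptor signalling, 3 were called higher and 3 lower (all genes: 14.0% and 13.2%). The median was 0.06. On the hybridization control scale 3 were higher and 7 lower, with a median of −0.24 (all 54613 probe sets: 1826 and 21292, median −0.26). IRAK2, a kinase of the receptor complex, was at 9.12, 9.15 and 9.29 in the USP48-labelled arrays and 7.06, 6.93 and 7.09 in the empty vector arrays. It rose by 2.16 (SE 0.10, limma adjusted p = 5.09e-07), but its dimmer probe sets differed by 0.19 and 0.27 and did not pass. MYD88, the adaptor of the receptor, rose by 1.04 (limma adjusted p = 2.99e-05) and PELI1, a ubiquitin ligase of the pathway, by 0.64 (limma adjusted p = 0.000757). TAB3, an adaptor of the kinase TAK1, was called lower at −0.65 by its brightest probe set and higher at 0.68 and 0.79 by dimmer ones, so its direction is not settled.

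Of 27 inflammasome and pyroptosis genes outside the members, 6 were called higher and 3 lower (all genes: 14.0% and 13.2%). The median was 0.07, and 8 of the 27 had both means below every array median. On the hybridization control scale 2 were higher and 7 lower, with a median of −0.22. All 54613 probe sets then had 1826 higher and 21292 lower, with a median of −0.26. That scale lowers every difference by 0.294. AIM2, the DNA sensor that recruits CASP1 through PYCARD, was at 6.62, 7.02 and 5.93 in the USP48-labelled arrays and 2.90, 3.04 and 3.11 in the empty vector arrays, a difference of 3.51 (limma adjusted p = 2.5e-06). Replicate 3 was the lowest USP48-labelled array for AIM2, as it was for CASP1. TXNIP, which binds the sensor NLRP3, rose by 0.88 (limma adjusted p = 0.000109). PYCARD and NLRP3 themselves were dim and not called by their brightest probe sets. PYCARD averaged 3.16 in the USP48-labelled arrays and 2.88 in the empty vector arrays, and NLRP3 2.56 and 2.22 in the same order. NAIP, a sensor of bacterial secretion and flagellar proteins, fell by 1.03 (limma adjusted p = 0.000274), and DPP8, an inhibitor of NLRP1 and CARD8, fell by 0.79 (limma adjusted p = 0.000334). The other NAIP probe sets were called lower too, at −1.09 and −0.73, and those of DPP8 were at −1.56, called lower, and −0.22, not called.

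Of 12 measured genes listed under IL1 maturation proteases and alarmin carriers, 1 was called higher and 0 lower. Of all genes 14.0% were called higher and 13.2% lower. The median of the list was 0.09. The gene called was SYT1, a vesicle protein, at 0.39 (limma adjusted p = 0.0202). It did not pass without USP48-labelled replicate 1, empty vector replicate 1 or empty vector replicate 2. On the hybridization control scale 0 were higher and 5 lower, with a median of −0.20 (all 54613 probe sets: 1826 and 21292, median −0.26).

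Of 22 measured genes known to be induced by IL1, 16 rose and 0 fell (all genes: 14.0% and 13.2%), with a median of 1.22. At an unadjusted p under 0.05 there were 17 and 0. On the hybridization control scale 13 were higher and 2 lower (all 54613 probe sets: 1826 and 21292). CXCL8, IL6, CXCL2 and CCL20 had the largest differences, at 5.50, 4.81, 3.34 and 2.87 (limma adjusted p of 6.36e-06 or lower). CCL20, a chemokine for lymphocytes and dendritic cells, was at 5.28, 5.41 and 6.04 in the USP48-labelled arrays and 2.52, 2.49 and 3.11 in the empty vector arrays, without overlap. The dimmer probe set of CXCL8 differed by 1.60 and those of CXCL2 by 0.38 and 0.08, the last not called. The 6 not called were CCL2, VCAM1, LCN2, CSF3, MMP1 and MMP3. IRAK2 is counted both in this list and among the genes of IL1 receptor signalling. Many genes of the list respond to other stimuli as well. The list was drawn up with earlier results known, so its direction is not independent evidence.

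**Figure D4:**
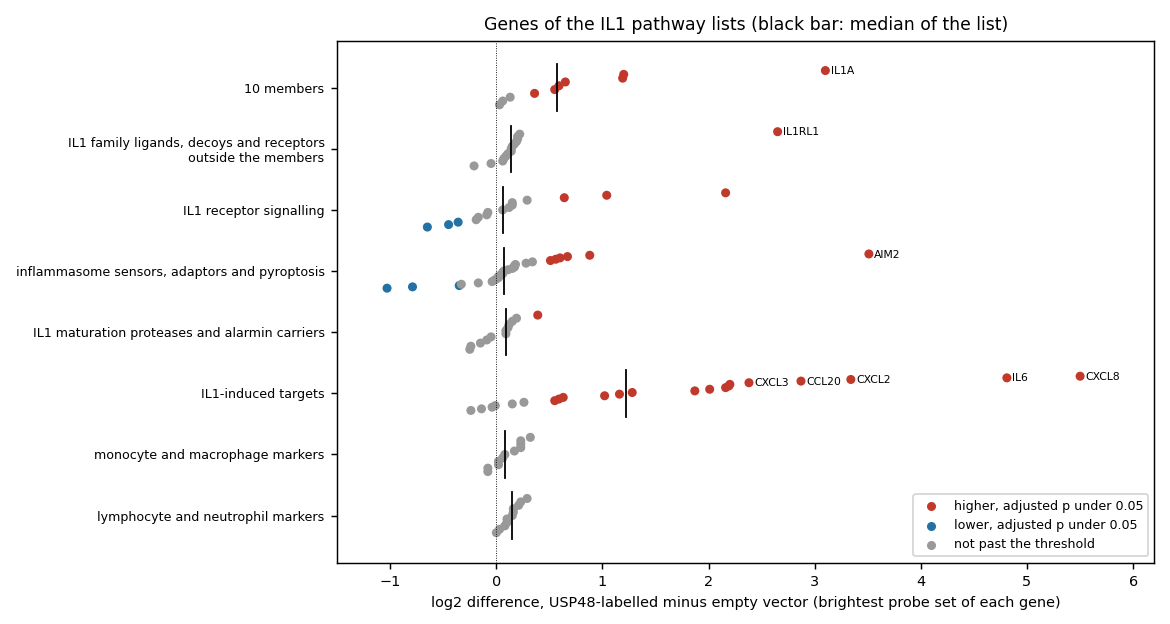
Log2 differences (USP48-labelled minus empty vector arrays) of the brightest probe set of each gene, for the 10 members and 7 lists; each point is a gene, red called higher, blue called lower, grey not called, and black bars are medians. The members and the IL1-induced targets have medians of 0.57 and 1.22, while the medians of the other lists lie between 0.06 and 0.15.

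IL1B and CASP1 are best known from myeloid cells, whose markers were dim in both groups. Of 11 monocyte and macrophage markers, 0 were called by limma (27.1% of all genes) and 2 were higher at an unadjusted p under 0.05. Both means were below every array median for 9 of the 11. With the mean of each gene's probe sets 2 were called higher, without USP48-labelled replicate 1 there was 1, and on the hybridization control scale 1 was lower. In either direction 5411 of 19775 genes were called with averaged probe sets. Of all 54613 probe sets 10687 were called without USP48-labelled replicate 1 and 23118 on the hybridization control scale. PTPRC, the common leukocyte antigen, was at 1.88 in the USP48-labelled arrays and 1.96 in the empty vector arrays, CSF1R at 3.06 and 2.98, and CD14 at 3.31 and 3.00 (difference 0.32, limma adjusted p = 0.0729). The array medians of the list ran from 3.01 to 3.14 in the USP48-labelled arrays and from 2.91 to 2.93 in the empty vector arrays. Of 11 lymphocyte and neutrophil markers 0 were called by limma (27.1% of all genes) and 2 were higher at an unadjusted p under 0.05. Array medians of this list were 3.71 to 3.84 in the USP48-labelled arrays and 3.48 to 3.73 in the empty vector arrays. CD2 and FCGR3B differed most, by 0.29 and 0.23 (limma adjusted p = 0.0534 and 0.0839). With the mean of each gene's probe sets 2 of these were called higher, and without USP48-labelled replicate 3 there was 1. Without that array 12594 of all 54613 probe sets were called in either direction.

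The genes most like the members across the 6 arrays were named by Pearson correlation of deposited values. For IL1A 210118_s_at they were CLDN1, AKAP12 and ITGB1-DT (0.9996, 0.9993 and 0.9987). For IL1B 39402_at they were HRK, EGFR and NFKBIE (0.9996, 0.9991 and 0.9987), and for CASP4 209310_s_at they were RAB35, KLF6 and SP100 (0.9989, 0.9989 and 0.9987). These values share the same 6 arrays and the difference between groups, and 79, 169 and 222 of 19765 genes had a correlation above 0.99 with IL1A, IL1B and CASP4 in that order.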

How the data were processed

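The authors deposited log2 values for 54675 probe sets and 6 arrays, and the submitters' processing notes name RMA, with a version and settings not given in the sources used here. RMA makes the distribution of signal alike on all arrays and hides shifts of the whole RNA content. Values ran from 0.190 to 13.2. The 62 control probe sets were kept out of the tests. Symbols came from the platform annotation, where 41091 probe sets named 1 gene, 1801 several and 11721 none. Of the first, 41037 matched RefSeq GRCh38.p14 by gene ID.

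The 3 USP48-labelled and 3 empty vector arrays entered 1 fit of limma 3.58.1 (lmFit, then eBayes, two-sided, R 4.3.3) over 54613 probe sets, with Benjamini-Hochberg adjustment over all and a threshold of 0.05. Single measures were compared by two-sided exact permutation (scipy 1.17.1). The code of the fit was tested on simulated data with independent noise and few changed probe sets. Shifts of a whole array were not simulated. The members, the 9 gene lists and the alternatives were chosen with earlier results of these data known. Representing genes by the probe set brightest in the empty vector arrays was added after seeing the data. Named are all members and, per list, up to 4 called genes of largest difference (2 if none), with defining markers. Same-numbered replicates showed correlations of deviations from −0.02 to 0.11 and were not treated as pairs. Detection calls and probe positions were not analysed. A fold is given only where both group means exceed every array median. The number of arrays limits the precision.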

Additional observations from a re-analysis of the deposited data

Results flagged for a closer look

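Probe set 1552703_s_at, left out of the comparisons because it names both CARD16 and CASP1, was called higher in the USP48-labelled arrays. It was at 8.52, 8.22 and 7.92 in the USP48-labelled arrays and 7.50, 7.29 and 7.45 in the empty vector arrays, without overlap, 0.80 apart on the log2 scale (SE 0.14, limma adjusted p = 0.00177). USP48-labelled replicate 3 was again the lowest of its group. The share of either gene in this signal was not tested.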

How the results depend on the processing

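Scaling arrays on the hybridization controls moved most counts: 4 member probe sets were then higher and 1 lower (9 and 0 as deposited), and 3 member genes were called (7 as deposited). Of all 54613 probe sets 1826 were then higher and 21292 lower. Lists then had 1 higher and 1 lower of the other IL1 family genes (2 calls) and 3 and 7 for receptor signalling (10 calls). Inflammasome genes had 2 and 7, and maturation proteases and carriers 0 and 5 (5 calls, without SYT1). With the probe set brightest in the empty vector arrays, chosen after seeing the data, 6 member genes and 0 other IL1 family genes were called, and IL1A minus IL1RN turned to −0.10, since IL1A and IL1RL1 then stand on other probe sets. With 1 array left out, 7 to 11 member probe sets were higher and 0 lower, and 5 to 7 member genes were called. The lists then had 1, 4 to 7, 7 to 10, 0 to 1 and 16 to 17 calls in the order of the report. In these fits 10101 to 12594 of all 54613 probe sets were called in either direction. The proteases list had 3 calls when probe sets of a gene were averaged and 0 at an adjusted p under 0.01 or with a limit of 1.5-fold. With averaged probe sets, IL1A minus IL1RN moved to 1.45 and CASP4 minus CASP1 to 0.20, and IL1RAP minus IL1R1 turned to 0.14; with 1 array left out the pairs ran from 2.71 to 3.25, 0.44 to 0.82 and −0.37 to −0.15, and IL1B minus IL1RN from 1.08 to 1.17. The cause of these moves was not tested, except that scaling lowers every difference by 0.294.

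Of 339 values of single probe sets under an alternative, 291 kept direction and side of the threshold, 19 lost a call, 9 gained one and 20 changed sign, none of which belonged to a called probe set. After scaling on the hybridization controls these were IL33 at −0.27, IL1RN 212659_s_at, 212657_s_at, 216243_s_at and 216245_at at −0.23, −0.17, −0.23 and −0.10, IL1RAP 210233_at at −0.0021, CASP1 206011_at at −0.27, CASP4 213596_at at −0.11 and GSDMD at −0.17. After quantile normalization IL33 was at −0.01. With 1 array left out IL33 ran from −0.04 to 0.09, IL1A 208200_at from −0.09 to 0.04, IL1RN 212657_s_at from −0.03 to 0.23, 216243_s_at from −0.03 to 0.14, 216244_at from −0.15 to 0.04, and CASP1 206011_at from −0.18 to 0.28. The number of the replicate as a block (replicate block) gave 11 higher member probe sets, adding CASP1 211366_x_at and 211367_s_at, 7 member genes, lists of 1, 6, 8, 1 and 16 calls, and 12702 called probe sets in all, against 13287; it changed no other call of a member. All called probe sets numbered 23118 after scaling on the hybridization controls, 8356 at an adjusted p under 0.01 and 5899 with the 1.5-fold limit. With averaged probe sets 5411 of all 19775 genes were called. Each list of immune cell markers gave 0 to 1 calls with 1 array left out and 2 with averaged probe sets; hepatocyte markers gave 1 to 2, and 3, all lower, on the hybridization control scale. Settings with 1 value per gene give no count of probe sets and were not run for that count.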

Other observations

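Markers of the cell line itself also differed between the groups. Of 9 markers of carcinoma and mesenchymal cells, 1 was called higher and 4 lower (all genes: 14.0% and 13.2%). The median log2 difference was −0.31. The count depends on the settings, and 3 to 6 were called with 1 array left out. Without empty vector replicate 1 there were 1 higher and 2 lower. At an adjusted p under 0.01 or with a limit of 1.5-fold there were 1 and 1. Of all 54613 probe sets 10101 to 12594 were called with 1 array left out, 8356 at that threshold and 5899 with that limit. FN1, the matrix protein fibronectin, was at 10.51, 10.69 and 9.58 in the USP48-labelled arrays and 8.82, 8.89 and 8.63 in the empty vector arrays, a difference of 1.48 (limma adjusted p = 0.000844), and replicate 3 was the lowest USP48-labelled array. The cadherin CDH2 fell by 0.65, VIM by 0.42 and EPCAM by 0.42 (limma adjusted p = 0.00158, 0.0111 and 0.0139). KRT8 averaged 10.57 in the USP48-labelled arrays and 10.88 in the empty vector arrays, without a call (limma adjusted p = 0.149). Of 11 hepatocyte markers, 0 rose and 1 fell (all genes: 14.0% and 13.2%), with a median of 0.07. It was CPS1, the first enzyme of the urea cycle, at 8.47, 8.42 and 8.29 in the USP48-labelled arrays and 9.79, 9.93 and 9.68 in the empty vector arrays, 2.65-fold lower (limma adjusted p = 5.68e-06).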
